A study of Mus musculus with 2 samples.

Results

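Neutrophil-leaning granule-high progenitors are bone marrow cells that carried abundant RNA for neutrophil primary granule proteases and, beyond that, RNA for genes switched on later in the neutrophil lineage. They were described in 2 single-cell RNA sequencing libraries of LSK cells, the lineage-negative, Sca-1-positive and c-Kit-positive bone marrow fraction that holds stem cells and early progenitors. The cells were chosen by measured values, namely the unique molecular identifiers (UMIs, 1 per captured transcript) of 16 genes. A barcode needed at least 8000 UMIs with under 10% from mitochondrial genes, at least 40 UMIs per 10000 from the granule genes Elane, Mpo, Prtn3 and Ctsg, and at least 3 UMIs summed over the late neutrophil genes Cebpe, S100a8, S100a9, Wfdc21, Lcn2 and Mrgpra2b. That late sum also had to equal or exceed the sum over the monocyte genes Ly86, Irf8, Csf1r, Ccr2, F13a1 and Ly6c2. By this rule 2307 of 10821 cells were neutrophil-leaning, 138 of 5363 in the miR-142 WT CML library and 2169 of 5458 in the miR-142 KO CML library.

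Both libraries came from BCR-ABL+ mice 8 to 10 weeks old, a tet-off model of chronic myeloid leukemia (CML) in which the SCL promoter, active in stem and progenitor cells, drives the transactivator and BCR-ABL is induced by tetracycline withdrawal. The KO library was labelled as carrying Mir142 KO in addition, so BCR-ABL was shared by both groups. There was 1 library per group and the number of mice behind each was not given in the sources used here. Differences between the genotypes, the mice and the libraries cannot be told apart, no test was run, and the 95% intervals below cover counting error only.

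About 8000 cells per library were captured per the labels. The matrices held 1957898 barcodes with 170881210 UMIs (WT) and 2055088 barcodes with 187721815 UMIs (KO), and the 5363 and 5458 cells kept here had a median of 19443 and 24182 UMIs. Neutrophil-leaning cells were deeper than that, with medians of 46562 UMIs in WT and 38142 UMIs in KO, which gave totals of 6806221 and 86402794 UMIs behind the gene levels. The libraries shared 4 cell barcodes, of which 0 belonged to neutrophil-leaning cells in both. Of the genes used to check the labels, Mir142hg, the host transcript of miR-142, had 44 UMIs in WT and 10 in KO neutrophil-leaning cells, 6.46 and 0.12 CPM (counts scaled to a common library total). Tspoap1, the next gene downstream, stood at 8.08 (WT) and 339 CPM (KO), and Gna11 stood at 16.6 and 63.9 CPM. The sort markers Kit and Ly6a were detected in 86.2% and 70.3% of the WT and in 78.0% and 75.6% of the KO neutrophil-leaning cells.

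Neutrophils arise from granulocyte-monocyte progenitors. At the promyelocyte stage these fill primary granules with myeloperoxidase and serine proteases, and only later, under C/EBP-epsilon, do they make secondary granule proteins such as lactoferrin and lipocalin-2. Monocytes share the first of these programs and then take another path under IRF8. MiR-142 is a microRNA made throughout the blood lineage, and its deletion is known to disturb several blood cell types.

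The mature products of the Mir142 locus, which were not measured here, are shown first because the KO library was labelled as carrying Mir142 KO. They are given as listed in RefSeq (GRCm38.p6), 5′ to 3′, with the seed (bases 2 to 8) in capitals, and lie on the plus strand of chromosome 11 at chr11:87756867-87756887 for the 5p arm and chr11:87756903-87756925 for the 3p arm.
mmu-miR-142a-5p: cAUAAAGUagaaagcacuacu
mmu-miR-142a-3p: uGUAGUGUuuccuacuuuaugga

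The 250 bases before the RefSeq start of the 4 granule genes are shown because these genes define the cells and did not all differ between the libraries in the same direction. Capitals mark GAGGAAGT, a site for ETS family factors such as PU.1, and TTNCNNAA, a loose form of the C/EBP site, both searched on either strand. They are given 5′ to 3′ on the gene's own strand, at chr10:79886062-79886311 (plus) for Elane, chr10:79879417-79879666 (plus) for Prtn3, chr11:87793534-87793783 (plus) for Mpo and chr14:56102575-56102824 (minus) for Ctsg.
Elane: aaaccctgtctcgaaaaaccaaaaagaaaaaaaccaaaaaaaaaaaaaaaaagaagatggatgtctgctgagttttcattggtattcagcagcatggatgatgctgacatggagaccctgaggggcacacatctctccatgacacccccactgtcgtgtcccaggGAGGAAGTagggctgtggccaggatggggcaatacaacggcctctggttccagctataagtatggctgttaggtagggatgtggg
Prtn3: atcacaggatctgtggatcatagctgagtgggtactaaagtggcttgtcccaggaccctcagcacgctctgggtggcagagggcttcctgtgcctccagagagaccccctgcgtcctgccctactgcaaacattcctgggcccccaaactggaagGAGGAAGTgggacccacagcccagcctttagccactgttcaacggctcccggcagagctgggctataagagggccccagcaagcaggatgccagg
Mpo: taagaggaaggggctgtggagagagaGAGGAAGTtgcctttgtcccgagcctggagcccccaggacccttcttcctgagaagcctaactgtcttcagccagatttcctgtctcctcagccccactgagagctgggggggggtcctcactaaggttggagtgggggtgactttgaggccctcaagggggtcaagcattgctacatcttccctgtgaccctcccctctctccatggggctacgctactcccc
Ctsg: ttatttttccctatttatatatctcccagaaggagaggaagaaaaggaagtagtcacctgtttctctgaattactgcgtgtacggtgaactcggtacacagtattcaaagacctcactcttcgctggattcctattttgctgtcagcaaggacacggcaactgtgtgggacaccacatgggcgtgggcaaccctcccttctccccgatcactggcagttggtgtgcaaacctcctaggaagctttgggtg
GAGGAAGT was found once each in the windows of Elane, Prtn3 and Mpo, and S100a8 held it as well, against 2.44% of all 32851 RefSeq windows of this length. TTNCNNAA was in none of the 4 windows shown and in those of S100a8, S100a9, Lcn2 and Mrgpra2b, against 36.8% of all windows. RefSeq windows were matched for 8 of the 10 granule and late neutrophil genes, all but Cebpe and Wfdc21. These matches describe the letters only. By the GENCODE positions given for the genes below, the Prtn3 window lies inside the gene. The Elane and Mpo windows run past the GENCODE start of their gene.

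Neutrophil-leaning cells made up 2.57% of the WT cells (exact binomial interval 2.17% to 3.03%) and 39.7% of the KO cells (38.4% to 41.1%). Granule-high cells of every kind numbered 1096 in WT and 3245 in KO, and 12.6% of them were neutrophil-leaning in WT against 66.8% in KO. Monocyte-leaning granule-high cells, those whose monocyte sum was the larger, numbered 841 in WT and 798 in KO, so the libraries held similar numbers of these while the neutrophil-leaning cells differed. The late sum and the granule share behind these counts were used by the rule, and deeper cells reach 3 UMIs more easily. With every cell thinned to 8000 UMIs before the rule was applied, the shares were 1.62% in WT and 33.0% in KO.

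Within the rule, the KO cells sat farther from its limits. The late sum had a median of 13.5 UMIs in WT and 28 UMIs in KO, with highest values of 495 and 2137. A late sum of 3 to 5 was found in 30.4% of the WT and 9.13% of the KO neutrophil-leaning cells, and one of 20 or more in 34.1% and 64.3%. Just inside the limits, 18 WT and 73 KO cells had a late sum of exactly 3, 11 and 63 had equal late and monocyte sums, and 20 and 98 had 40 to 50 granule UMIs per 10000. Just outside, 17 WT and 69 KO cells had a late sum of 2, 24 and 114 missed by 1 or 2 monocyte UMIs, and 24 and 75 had 30 to 40 granule UMIs per 10000. The class was cut from these per-cell sums and is a range by construction, and whether it forms a separate type was not tested.

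**Figure D1:**
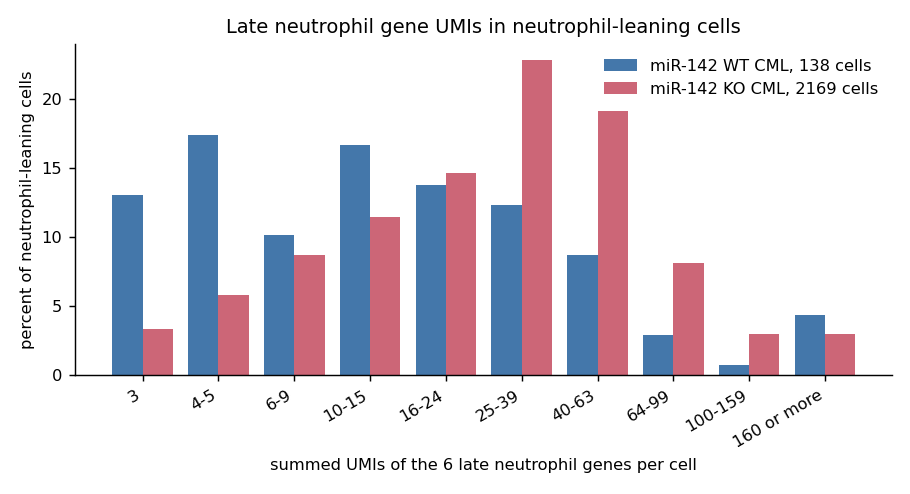
Share of neutrophil-leaning cells (y axis, percent of each library's 138 or 2169 cells) by the summed UMIs of the 6 late neutrophil genes per cell (x axis, bins of unequal width). WT cells (blue) are most frequent at 4 to 5 UMIs (17.4%) and KO cells (red) at 25 to 39 UMIs (22.9%).

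All 6 markers behind the label are genes of the rule, so their detection is a description and no check of the label. Elane, Lcn2 and Cebpe were detected in most of the cells of both libraries and Wfdc21, S100a8 and S100a9 in a minority. Lcn2 was detected in 89.1% of WT and 99.0% of KO neutrophil-leaning cells, and all 4 granule genes together in 92.0% and 97.1%. Cebpe was detected in 53.6% and 62.7%, Wfdc21 in 26.1% and 42.0%, S100a8 in 29.0% and 36.2% and S100a9 in 11.6% and 12.2%. Only 12 WT and 209 KO cells had UMIs of all 6 late genes, while 32 WT and 168 KO cells had UMIs of just 1, which was Lcn2 in 22 and 155 of them. Lcn2 gave the largest share of the late sum among the 6 genes, 36.2% in WT and 51.9% in KO.

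Free RNA can put such UMIs into any droplet, so the same genes were counted in a reference set. These were cells with 5 or more UMIs of the megakaryocyte genes Pf4, Gp9, Gp1bb, Itga2b and Ppbp. Granule-high and neutrophil-leaning cells were not taken out of this set. It also carried mast cell RNA, with Cpa3 at 2881 (WT) and 6583 CPM (KO), so it is no clean negative control. After thinning to 8000 UMIs, Lcn2 was detected in 63.8% of WT and 93.4% of KO neutrophil-leaning cells and in 1.99% and 16.5% of those reference cells (503 and 581 cells, with median depths of 20250 and 16547 UMIs). Elane was detected in 80.4% and 93.2% against 10.9% and 31.0%. Cebpe was detected in 22.5% and 30.1% against 0.20% and 3.44%. The neutrophil-leaning cells were selected on these genes and had to lie above the reference. The reference rates were higher in KO. They may include RNA of the cells themselves besides free RNA, so they do not give the level of background. By the immunoglobulin gene Igkc alone, free RNA gave at most 0.508% of the UMIs in WT and 1.39% in KO neutrophil-leaning cells. By that estimate it made up 0.0757% and 1.01% of their late neutrophil level. In the reference cells the late genes summed to 13.9 (WT) and 156 CPM (KO). In neutrophil-leaning cells they summed to 695 and 1038 CPM. The reference level is a larger part of these sums than the Igkc estimate gives, so Igkc was not taken as an upper limit for the late genes. Whether the late UMIs of the reference cells came from free RNA was not tested.

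Among the granule genes, Elane and Ctsg were higher and Mpo lower in KO neutrophil-leaning cells. Elane (neutrophil elastase, chr10:79886247-79888215) stood at 2443 CPM in WT (exact Poisson interval 2406 to 2480) and 3722 CPM in KO (3709 to 3735), a log2 ratio of KO over WT of 0.61 (interval 0.58 to 0.63). Ctsg (cathepsin G, chr14:56099881-56102574) stood at 3606 and 5769 CPM, a log2 ratio of 0.68 (0.66 to 0.70). Mpo (myeloperoxidase, chr11:87793581-87804413) went the other way, at 3379 and 2256 CPM with a log2 ratio of -0.58 (-0.60 to -0.56). Prtn3 (proteinase 3, chr10:79874476-79883174) stood at 5281 and 6119 CPM, with a log2 ratio of 0.21 that turned to -0.06 when the rule was applied to thinned cells and to -0.09 when cells with a late sum of 3 to 5, 6 to 19 and 20 or more were given equal weight. All 4 levels are part of the rule and are given as a description.

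The direction for Mpo was the same at every level of the late sum, whereas that for Elane was not. In cells with a late sum of 3 to 5, 6 to 19 and 20 or more, Mpo stood at 1731, 3154 and 4201 CPM (WT) and at 770, 1320 and 2578 CPM (KO), log2 ratios of -1.17, -1.26 and -0.70, and its log2 ratio in monocyte-leaning cells was -0.57. Elane stood at 251, 1587 and 3937 CPM (WT) and at 309, 1345 and 4518 CPM (KO), log2 ratios of 0.30, -0.24 and 0.20. Both genes were higher where the late sum was higher, in both libraries. For Ctsg the log2 ratios were 0.65, 0.25 and 0.53, all higher in KO. The bins were cut on UMIs not scaled to depth, and WT cells were the deeper in each. Median UMIs in the 3 bins were 28810.5, 45143 and 70125 (WT) and 20213, 27097 and 45617.5 (KO). A bin is therefore not the same late level per UMI in both libraries.

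The genes were also compared within each cell, which needs no scaling to a total. Since 3′ counting gives 1 tag per captured transcript, UMI numbers were not divided by gene length, and the contrast lies between the libraries, not between the genes. Ctsg UMIs outnumbered Mpo UMIs in 72 of 138 WT cells (52.2%, interval 43.5% to 60.7%) and in 2141 of 2169 KO cells (98.7%, 98.1% to 99.1%). Elane UMIs outnumbered Mpo UMIs in 16.7% of the WT (10.9% to 24.0%) and 64.3% of the KO cells (62.2% to 66.3%). At a late sum of 20 or more the Elane shares were 38.3% and 85.5%. At 3 to 5 they were 4.76% and 12.1%, with overlapping intervals of 0.58% to 16.2% and 7.92% to 17.5%. These intervals treat the cells of 1 library per group as independent and do not measure the spread between mice. Monocyte-leaning cells gave a like contrast, with Ctsg above Mpo in 58.3% of 841 WT and 99.2% of 798 KO cells. Both classes were chosen on the sum of these granule genes, so the shares are a description.

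**Figure D2:**
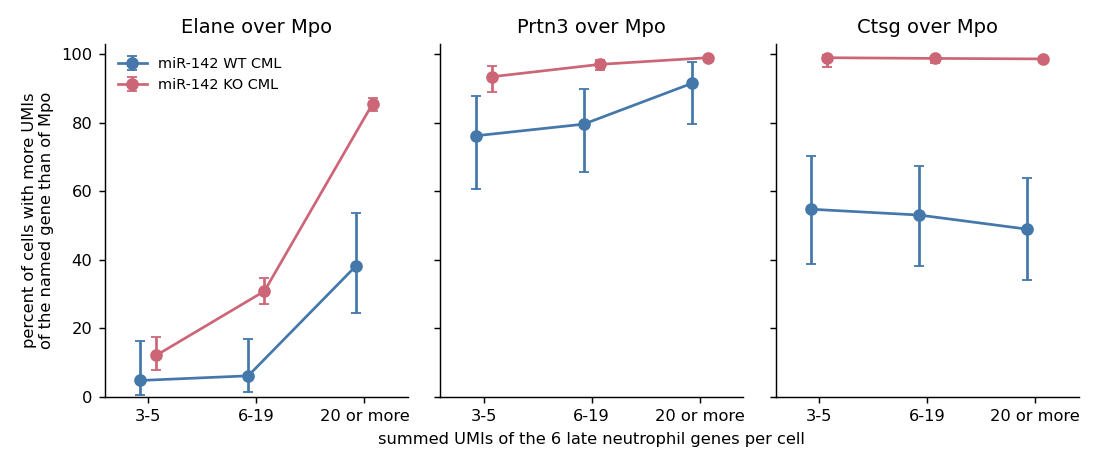
Share of neutrophil-leaning cells in which Elane, Prtn3 or Ctsg had more UMIs than Mpo (y axis, percent), by the summed UMIs of the 6 late neutrophil genes per cell (x axis), for WT (blue) and KO (red), with exact binomial 95% intervals as bars. Ctsg exceeded Mpo in nearly all KO cells of each bin and in 48.9% to 54.8% of the WT cells, and the Elane share was higher where the late sum was higher in both libraries.

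Mpo starts 36310 bases after the annotated end of Mir142hg (chr11:87755577-87757270), with Tspoap1 (chr11:87760541-87785928) starting 3270 bases after it and lying between. In cells that were not granule-high, Mpo stood at 230 (WT) and 101 CPM (KO), a log2 ratio of -1.19, while Ctsg stood at 298 and 765 CPM, a log2 ratio of 1.36. Both directions were the same there, but these cells were cut on the sum of the same granule genes, so the values are a description. In barcodes of 10 to 100 UMIs, taken as free RNA, Ctsg stood at 1461 (WT) and 4667 CPM (KO) and Mpo at 986 and 1347 CPM. How much of the level in cells that were not granule-high came from free RNA was not tested. Whether the position of Mpo has a part in its level was not tested.

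Late neutrophil genes of the rule were mostly higher in KO cells, except the alarmins S100a8 and S100a9. Lcn2 (lipocalin-2, chr2:32384633-32388252) stood at 252 (WT) and 539 CPM (KO), a log2 ratio of 1.10, with log2 ratios between 0.66 and 1.05 in the 3 bins of the late sum. The late genes make up that sum and WT cells of each bin were deeper, so their bin ratios are not at an equal late level. Wfdc21 (a small whey acidic protein family gene, chr11:83746940-83752642) stood at 41.4 and 95.7 CPM, a log2 ratio of 1.21 that was 0.52 with equal weight for the 3 bins. In the lowest bin it stood at 0 (WT) and 1.43 CPM (KO), in the middle bin at 5.65 and 2.55 CPM and in the highest at 83.7 and 124 CPM. Cebpe (C/EBP-epsilon, chr14:54710360-54712174) stood at 42.2 and 69.0 CPM, a log2 ratio of 0.71, but at -0.19 and -0.37 in the lower 2 bins. Mrgpra2b stood at 49.8 and 80.8 CPM, and its neighbour and near copy Mrgpra2a at 14.8 and 28.8 CPM, so how reads were split between the pair is uncertain.

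S100a8 and S100a9, the subunits of calprotectin, were held by few cells. S100a8 stood at 205 (WT) and 189 CPM (KO), a log2 ratio of -0.12, and the 5 cells with most UMIs held 75.8% of its UMIs in WT and 17.8% in KO. S100a9 stood at 105 and 64.7 CPM, a log2 ratio of -0.70, with 92.5% of the WT UMIs in 5 cells. Only 12 of 138 WT and 242 of 2169 KO cells had 10 or more UMIs of S100a8. Their levels are those of a minority of cells, and without both genes in the rule the log2 ratio of S100a8 was 0.11.

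Monocyte genes of the rule remained detectable and did not share a direction. F13a1 (coagulation factor XIII A chain) stood at 54.8 (WT) and 164 CPM (KO), a log2 ratio of 1.58, and was detected in 51.4% and 85.4% of the cells. Its log2 ratios were 1.69, 2.25 and 0.95 in the 3 bins of the late sum. With the rule applied to thinned cells its log2 ratio was 0.61, under 2-fold, and in monocyte-leaning cells it was 0.67. Irf8, which directs monocyte and dendritic fate, stood at 34.97 and 22.4 CPM (-0.64), and Ccr2 (the receptor for CCL2) at 52.7 and 36.9 CPM (-0.51). Ly6c2 stood at 122 and 120 CPM (-0.02). Cells with more F13a1 than Irf8 UMIs made up 34.8% of WT and 78.5% of KO neutrophil-leaning cells. Over the whole monocyte and dendritic list 1 of the 9 tested genes, F13a1, was higher in KO and 8 were lower, with a median log2 ratio of -0.37. That is 88.9% lower, against 61.0% of all tested genes. The list includes genes of the rule, such as F13a1 and Irf8, so its count and median come partly from values that chose the cells.

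**Figure D3:**
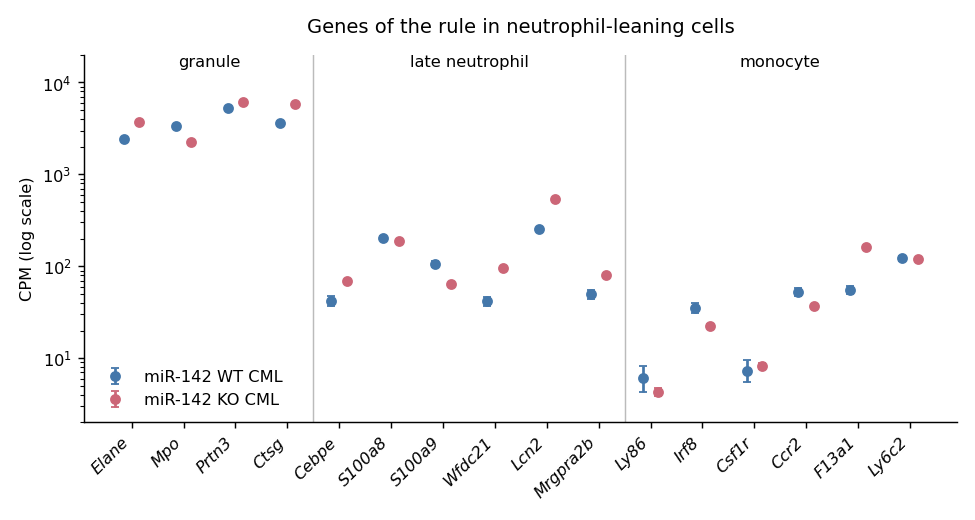
Levels of the 16 genes of the rule (y axis, CPM on a log scale) in neutrophil-leaning cells of WT (blue) and KO (red), with exact Poisson 95% intervals as bars, many of them smaller than the points. Mpo, S100a9, Irf8 and Ccr2 are lower and Elane, Ctsg, Lcn2, Wfdc21 and F13a1 higher in KO.

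Genes were then compared over the whole table. Of 7033 genes with a mean of 10 CPM or more over both libraries, 37 were at least 2-fold higher in KO neutrophil-leaning cells (0.526%) and 35 at least 2-fold lower (0.498%). Over all of these genes the median log2 ratio was -0.06, with 2746 higher and 4287 (61.0%) lower in KO. Among genes of 50 CPM or more in either library the highest ratios after Tspoap1 were those of Cfl2 (cofilin-2, an actin severing protein), at 23.7 (WT) and 96.4 CPM (KO) (2.02), Gna11 (a G protein alpha subunit, 1.94) and Tsen34 (a subunit of the tRNA splicing endonuclease), at 39.5 and 137 CPM (1.79). F13a1, a gene of the rule, Scoc (1.33), Selenom (a selenoprotein, 1.27), Bod1 (a kinetochore protein, 1.23), Wfdc21, also a gene of the rule, and Akt1s1 (an mTORC1 component, 1.11) followed. All of these but F13a1 were under 50 CPM in WT and entered the ranking only through their KO level. In monocyte-leaning cells of the same libraries Cfl2 had a log2 ratio of 2.20, Tsen34 of 1.59, Scoc of 1.37 and Bod1 of 1.33. None of these genes is shown here to be particular to the neutrophil-leaning cells.

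Among genes of 50 CPM or more in either library, the lowest ratios were those of proteases of other cell types. Prss34 and Mcpt8, basophil and mast cell proteases, stood at 973 and 609 CPM (WT) and at 131 and 108 CPM (KO) (log2 ratios of -2.89 and -2.50), and Cpa3 (mast cell carboxypeptidase A) at 395 and 133 CPM (-1.57). In WT the 5 cells with most UMIs held 87.5% of the Prss34, 79.0% of the Mcpt8 and 82.5% of the Cpa3 UMIs. Of the 35 lower genes 12 had 50% or more of their WT UMIs in 5 cells, and of the 37 higher genes 5 did. Histone Hist1h2ap followed, at 1866 and 562 CPM (-1.73), and Hist1h2ae stood at 495 and 268 CPM (-0.89), although near-identical histone copies make the assignment of reads uncertain. Mndal (-1.12), which overlaps Ifi203 (-1.01), Ifi27 (-1.10), Nedd4 (a ubiquitin ligase, -0.80) and Mns1 (-0.80) were also lower. Mndal, Ifi27, Nedd4 and Mns1 were under 50 CPM in KO and entered the ranking only through their WT level.

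Cells with genes of another lineage were among those chosen. Of the WT neutrophil-leaning cells 17 (12.3%) and of the KO cells 157 (7.24%) had 10 or more UMIs summed over Cpa3, Mcpt8, Prss34, Ms4a2, Prg2, Prg3 and Epx, the basophil, mast cell and eosinophil genes. Over the list of 8 mast and basophil genes the summed level was 2185 (WT) and 510 CPM (KO). In either library 0 of these genes were at 0. Of the tested genes of the list 7 of 7 were lower in KO, against 61.0% of all tested genes. Prg2, an eosinophil granule gene, had 1 UMI in WT and 2691 UMIs in KO, 98.9% of them in 5 cells. Without the cells carrying these genes 20 genes were at least 2-fold lower and 39 at least 2-fold higher. Prss34, Mcpt8 and Cpa3 are among the genes these cells were left out on, so their lower levels in the remaining cells follow from the filter. The stem and mast cell factor Gata2, which the filter did not use, was then at a log2 ratio of 0.50 (interval 0.14 to 0.89) against -0.89 with all cells.

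**Figure D4:**
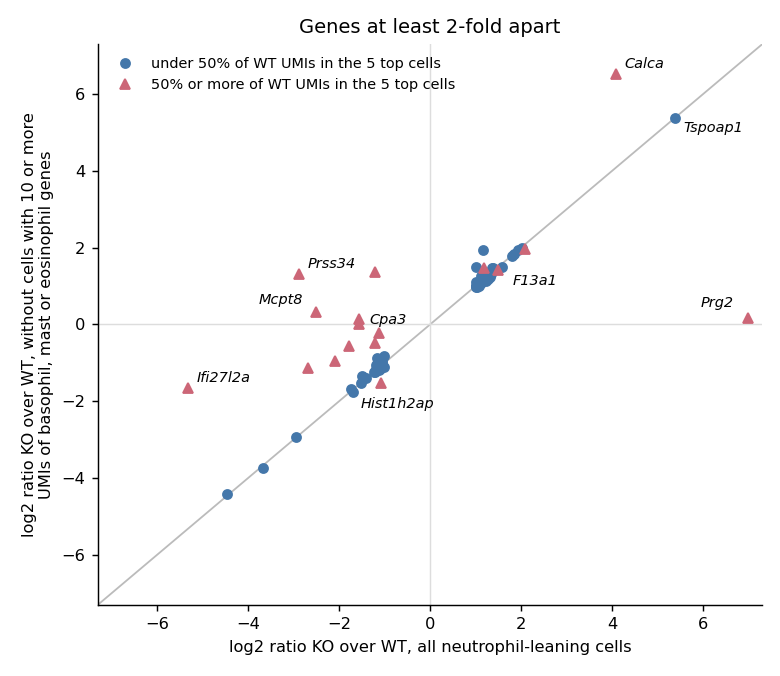
Log2 ratios of KO over WT for the 72 genes at least 2-fold apart, in all neutrophil-leaning cells (x axis) and without cells with 10 or more UMIs of basophil, mast cell or eosinophil genes (y axis). Several genes with 50% or more of their WT UMIs in 5 cells (red triangles), such as Prss34, Mcpt8 and Prg2, which the cells were left out on, lie far from the diagonal, and most of the remaining genes (blue) lie close to it.

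The neutrophil gene lists differed in how far they moved from the background median of -0.06. Of all tested genes 39.0% were higher and 61.0% lower in KO, the shares to set beside the counts of each list. Several of the lists hold genes of the rule, so their counts and medians are a description. Of the primary granule list 14 of 17 tested genes were higher in KO and 3 lower, with a median log2 ratio of 0.19. Beyond the rule genes it held Srgn (serglycin, the granule proteoglycan), at 1832 and 2756 CPM (0.59), Serpinb1a (an inhibitor of granule proteases), at 330 and 449 CPM (0.44), and Ms4a3, at 1126 and 1492 CPM (0.41). Ctsc (cathepsin C, which activates the granule proteases) was at 75.5 and 60.6 CPM (-0.32). Besides Mpo and Ctsc, Gusb (-0.11) was the remaining lower gene.

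Secondary and tertiary granule genes split into those already on and those at or near 0. Lactoferrin (Ltf) had 0 UMIs in both libraries, a level of up to 0.441 (WT) and 0.0347 CPM (KO) given that a count of 0 allows 3. Camp (cathelicidin) had 2 and 23 UMIs, Ngp 1 and 22 UMIs and Fcnb (ficolin B) 14 and 287 UMIs, against 1712 and 46561 UMIs of Lcn2. Of the 24 listed genes 8 were tested, 6 higher and 2 lower in KO, with a median log2 ratio of 0.86. Lrg1 stood at 12.05 and 43.4 CPM (1.84), Pglyrp1 (a peptidoglycan recognition protein) at 77.9 and 150 CPM (0.94) and Hp (haptoglobin) at 289 and 538 CPM (0.90). In monocyte-leaning cells of the same libraries the log2 ratios of these genes were 1.80, 1.38 and 0.65.

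Transcription factors of the lineage varied less. Of 15 tested, 9 were higher and 6 lower in KO, with a median log2 ratio of 0.04. Gfi1, a repressor needed for neutrophil fate, stood at 43.9 and 67.1 CPM (0.61) and was at 0.59 in the bin with a late sum of 20 or more but at no more than 0.09 in the lower bins. The inhibitor of DNA binding Id1 stood at 41.3 and 54.9 CPM (0.41), and at a log2 ratio of 0.85 without the cells carrying basophil, mast cell or eosinophil genes. Cebpa, the factor that opens the granulocyte program, was at 93.2 and 78.0 CPM (-0.26) and Spi1, which encodes PU.1, at 244 and 250 CPM (0.04).

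Receptors and the oxidase were near the background median as lists. Of 17 receptor and surface genes 10 were higher and 7 lower in KO, with a median of 0.02. Csf3r, the receptor for G-CSF, stood at 33.9 and 34.3 CPM (0.02). Cd63, a granule membrane tetraspanin, stood at 264 and 535 CPM (1.02), with log2 ratios of 0.85, 0.95 and 1.54 in the 3 bins. Of 8 NADPH oxidase genes 4 were higher and 4 lower, with a median of -0.01. Its membrane subunits went apart, Cyba at 299 and 371 CPM (0.31) and Cybb at 23.2 and 16.4 CPM (-0.50). Of the alarmin and antiprotease list 8 of 13 tested genes were higher and 5 lower, with a median of 0.14 that turned to -0.21 with equal weight for the 3 bins of the late sum. Anxa1 (annexin A1) stood at 221 and 134 CPM (-0.72) and S100a10 at 136 and 85.2 CPM (-0.67).

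Genes of the endoplasmic reticulum, through which granule proteins pass, numbered 17 lower and 7 higher in KO of 24 tested (70.8% lower, against 61.0% of all tested genes), with a median of -0.08 that was close to the background. Creld2 stood at 93.6 and 65.2 CPM (-0.52), the chaperones Hsp90b1 at 794 and 598 CPM (-0.41) and Hspa5 at 746 and 611 CPM (-0.29). Subunits that cleave or translocate the nascent chain had ratios on the other side, Spcs1 at 210 and 266 CPM (0.34) and Ssr2 at 470 and 549 CPM (0.22).

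Cell cycle genes were lower in KO nearly throughout. Of 30 S phase genes 28 were lower (93.3%, against 61.0% of all tested genes), with a median log2 ratio of -0.23. Of 30 G2/M genes 26 were lower (86.7%), with a median of -0.19. Cdca7 stood at 149 and 113 CPM (-0.40), Mcm3 (a helicase subunit) at 177 and 139 CPM (-0.34), Mki67 at 153 and 112 CPM (-0.46) and Kif23 at 43.2 and 28.9 CPM (-0.58). Per cell, the summed S phase genes had a median of 40.5 UMIs per 10000 in WT (quartiles 29.8 and 51.3) and 35.5 in KO (25.3 and 45.4), so the libraries overlapped widely. The 2 medians of the lists were -0.25 and -0.26 in monocyte-leaning cells and -0.36 and -0.45 in cells that were not granule-high.

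Mitochondrial genes split by genome. Of 13 genes of the mitochondrial genome 11 were lower in KO (84.6%, against 61.0% of all tested genes), with a median of -0.22. Among them was mt-Co3 at 2695 and 2039 CPM (-0.40). Of 34 nuclear oxidative phosphorylation genes 19 were higher and 15 lower, with a median of 0.02, led by Ndufb8 at 400 and 486 CPM (0.28) and Sdhd at 226 and 199 CPM (-0.18). The share of mitochondrial UMIs had a median of 2.02% in WT and 1.71% in KO neutrophil-leaning cells.

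Of 19 stem and early progenitor genes 15 were lower and 4 higher in KO (78.9% lower, against 61.0% of all tested genes), with a median of -0.19. Hlf, a stem cell factor, stood at 17.5 and 6.49 CPM (-1.42), with log2 ratios of -0.63, -1.10 and -1.24 in the 3 bins. Sox4 stood at 90.4 and 61.3 CPM (-0.56) and Msi2 at 43.3 and 29.8 CPM (-0.54), whereas Ly6a, which encodes the sort marker Sca-1, stood at 56.4 and 80.9 CPM (0.52). The list depended on how far along the late sum the cells were. With equal weight for the 3 bins its median was 0.08, and with the rule applied to thinned cells it was 0.08 as well.

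Interferon response genes were lower in KO in 8 of 9 tested (88.9%, against 61.0% of all tested genes), with a median of -0.72. That median was -0.15 when the rule was applied to thinned cells, and few WT cells carried much of this. Ifi27l2a stood at 48.0 (WT) and 1.10 CPM (KO), but 5 WT cells held 95.4% of its UMIs, and Isg15 stood at 19.98 and 3.04 CPM with 80.1% in 5 cells. Ifi203, at 41.7 and 20.6 CPM (-1.01), and Mndal, at 51.7 and 23.8 CPM (-1.12), were spread over more cells, with 12.7% and 12.5% of the WT UMIs in 5 cells. Of the NF-kB and immediate early list 12 of 17 were higher and 5 lower, with a median of 0.04 that was 0.53 with equal weight for the 3 bins. Nfkbia stood at 45.7 and 61.1 CPM (0.42) and the chemokine Ccl3 at 26.7 and 7.74 CPM (-1.77), with 79.1% of its WT UMIs in 5 cells.

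**Figure D5:**
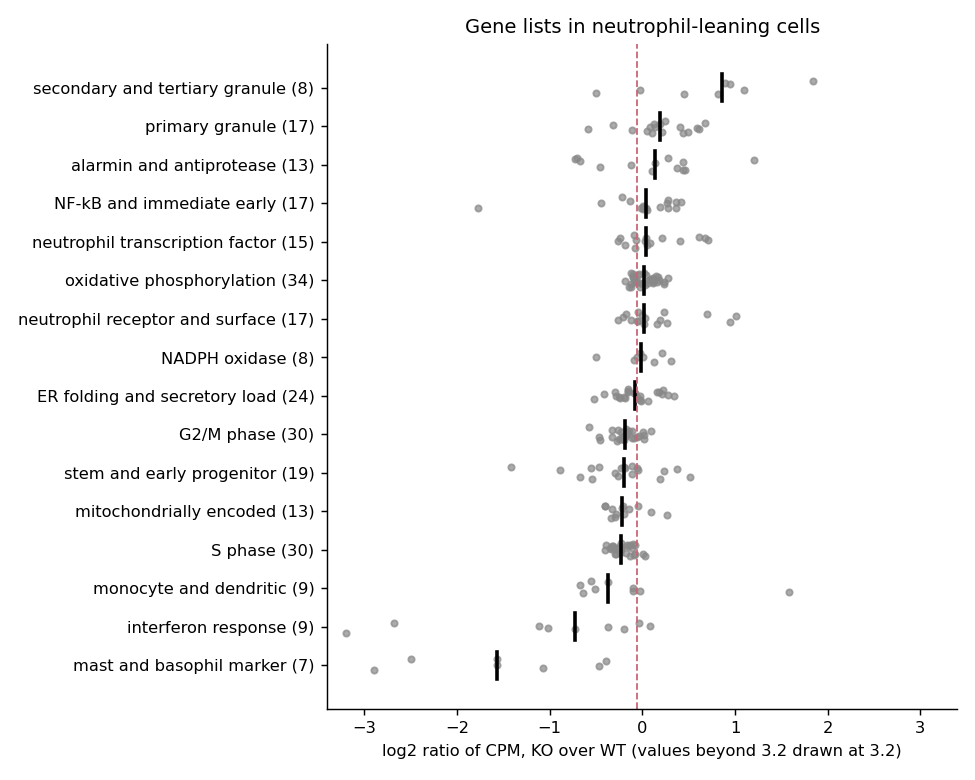
Log2 ratios of KO over WT in neutrophil-leaning cells (x axis) for each tested gene (grey points) of 16 gene lists (y axis, number of tested genes in brackets), with the list median as a black bar and the median of all 7033 tested genes (-0.06) as a dashed line. Secondary and tertiary granule genes have the highest median (0.86) and mast and basophil genes the lowest (-1.56), and 1 gene, Ifi27l2a, lies beyond the drawn range.

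Outside the rule, 2508 genes had 50 CPM or more in neutrophil-leaning cells of both libraries. They were ranked by their level over the other granule-high cells of the same library, and the 10 highest were named. That these 10 were higher follows from the ranking. By the smaller of its ratios in the 2 libraries Pglyrp1 came first, with log2 ratios of neutrophil-leaning over other granule-high cells of 1.34 in WT and 1.01 in KO. Vat1 (1.19 and 0.66), the glutathione transferase Gstm1 (0.63 and 0.60), the granule protein Nkg7 (0.80 and 0.53), Rgcc (0.53 and 0.60), the phosphodiesterase Pde4d (0.52 and 0.46), the actin depolymerizing factor Dstn (0.45 and 0.49), the Fc receptor Fcgr3 (0.83 and 0.45) and Cd63 (1.55 and 0.44) were among them. For Cd63 the neutrophil-leaning level was 175 (WT) and 497 CPM (KO) without cells carrying basophil, mast cell or eosinophil genes. In cells that were not granule-high Cd63 stood at 280 and 837 CPM, so it is not particular to neutrophil-leaning cells. The classes were cut from the same cells, so the ratios over other granule-high cells are a description. Of these genes Pglyrp1 (0.94), Gstm1, at 209 and 371 CPM (0.83), Dstn, at 162 and 268 CPM (0.72), and Cd63 were also higher in KO than in WT neutrophil-leaning cells, while Nkg7 stood at 334 and 346 CPM (0.05).

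Across single cells of a library, the late sum per 10000 UMIs went with the granule genes, with Spearman correlations of 0.73 over 138 WT and 0.75 over 2169 KO cells. It went with the ER genes at 0.57 and 0.55 and with the NADPH oxidase genes at 0.48 and 0.51, and against the stem and early progenitor genes at -0.37 and -0.50. With the monocyte genes, which the rule also used, the correlations were 0.77 in WT, the highest of those computed there, and 0.58 in KO. Correlations with S phase genes were 0.16 and -0.07. The correlation with the total UMIs of the cell was 0.45 and 0.35, so depth went with the late sum as well, and all of these are descriptions of cells that share a library.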

How the data were processed

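Droplet-based single-cell RNA sequencing (10x Genomics 3′ kit) was measured in 1 LSK library per group. Per the labels the authors aligned reads to mm10 and counted UMIs with Cell Ranger 6.1.2 (the file headers give 4), and the deposited counts are raw, unnormalized and unfiltered for cells. Here barcodes with 8000 or more UMIs and under 10% mitochondrial UMIs were kept, 24 WT and 4 KO barcodes failing only the second limit. Doublets were kept and no caller was run, and an alternative left out the 4 WT and 65 KO cells over 2 times the median UMIs. UMIs were summed over the chosen cells of each library and scaled to CPM. Log2 ratios used a pseudocount of 0.1 CPM, and their intervals are exact conditional binomial (95%). They were tried only on simulated Poisson counts, the model they assume. That trial does not cover genes whose UMIs lie in few cells. Genes needed a mean of 10 CPM, and a gene counted as apart at 2-fold. The cell rule, members and gene lists were chosen with earlier results of these data known. Named genes were the rule genes, the label checks, up to 4 per list plus defining genes, and the 10 highest and 10 lowest ratios. Those ratios were ranked among genes of 50 CPM in either library. Also named were the 10 genes highest over other granule-high cells, among genes of 50 CPM in both libraries. Other list genes, given for their role (Ctsc, Gusb, Serpinb1a, Ms4a3, Cebpa, Spi1, Csf3r, Hspa5, Ssr2, Msi2), and Ly6a were chosen after their values were seen. Gene positions are from GENCODE M21 (GRCm38). Python 3.11.15, numpy 2.4.6, scipy 1.17.1 and pandas 2.3.3 were used. One gene that the naming rule selected is not reported here.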

Additional observations from a re-analysis of the deposited data

How the results depend on the processing

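No paired analysis was possible because there was 1 library per group. Over the 13 alternatives 177 list medians stayed near the reported one, 38 moved and 5 reversed. Near meant within the median counting error of the single genes of the list. Single genes were not redone with the limits of 50 CPM and of any UMI. Of their values 829 stayed within counting error of the reported one, 243 moved beyond it and 17 reversed. The cause was not tested. The share of neutrophil-leaning cells was 1.62% in WT and 30.7% in KO with barcodes from 300 UMIs, 4.05% and 53.6% from 16000 UMIs, 1.62% and 33.0% after thinning to 8000 UMIs, 1.79% and 36.1% with a late sum of 6 or more, and 36.9% in KO without cells carrying basophil, mast or eosinophil genes, an alternative chosen after seeing the data. Among genes with a mean of 50 CPM or more over both libraries 12 were at least 2-fold higher and 5 lower, and among genes with any UMI 887 and 1040. With a late sum of 6 or more 21 genes were lower, and without cells of basophil, mast or eosinophil genes 20 were.

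With the rule applied to thinned cells the list medians were 0.089 for primary granule, 0.72 for secondary and tertiary granule, -0.23 for ER, -0.69 for monocyte, 0.076 for stem, -0.12 for mitochondrially encoded, -0.15 for interferon, 0.45 for NF-kB and 0.32 for mast and basophil genes. With a late sum of 6 or more they were 0.13, 0.72, -0.17, -0.027 (stem), -0.16 (mitochondrially encoded), -0.29, 0.36 and -0.25 for the same lists without the monocyte one, and 0.33 for alarmins. With equal weight for the 3 bins of the late sum they were 0.10 for primary granule, 0.60 for secondary and tertiary granule, -0.21 for alarmin, -0.19 for ER, 0.082 for stem, -0.33 for G2/M, -0.059 for oxidative phosphorylation, -0.15 for mitochondrially encoded, -0.30 for interferon, 0.53 for NF-kB and -0.44 for mast and basophil genes. With each cell given equal weight they were -0.28 for mitochondrially encoded, -0.49 for interferon and -1.39 for mast and basophil genes. Among genes with a mean of 50 CPM they were 0.21 for receptors, 0.23 for NF-kB and -2.03 for mast and basophil genes. With any UMI they were 0.49 for secondary and tertiary granule, -0.92 for interferon and -1.32 for mast and basophil genes. Size factors gave 0.072 for oxidative phosphorylation and -0.16 for mitochondrially encoded genes, 16000 UMIs gave -1.71 for mast and basophil genes, and leaving out cells with basophil, mast or eosinophil genes gave -0.37 for interferon and 0.23 for mast and basophil genes.

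Single genes reversed as follows. Thinned counts were used only to choose cells, and levels were taken from all UMIs of the chosen cells. With the rule applied in this way Prtn3 was at -0.058, Rgcc at -0.050, Ncf4 at -0.023, Angpt1 at 0.065, Gata2 at 0.14 and Cpa3 at 0.29. With equal weight for the 3 bins Prtn3 was at -0.091, Rgcc at -0.20, 1700020L24Rik at -0.16, Angpt1 at 0.0086 and Klf6 at 0.14. Without S100a8 and S100a9 in the rule S100a8 was at 0.11. Without cells with basophil, mast or eosinophil genes Prss34 was at 1.32, Gata2 at 0.50, Mcpt8 at 0.33, Cpa3 at 0.15 and Ms4a2 at 0.0088. These cells were left out on UMIs of Prss34, Mcpt8, Cpa3 and Ms4a2 themselves, and the intervals of Prss34 (1 WT UMI), Cpa3 (-0.20 to 0.52) and Ms4a2 span 0. Depth limits the WT values most, since 138 cells gave 6806221 UMIs there against 86402794 in KO.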
